A study of Caenorhabditis elegans with 2 samples.

Results

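The mir-51 family of Caenorhabditis elegans comprises the 6 microRNA (miRNA) genes mir-51, mir-52, mir-53, mir-54, mir-55 and mir-56, of 260 miRNA genes in the WBcel235 (ce11) annotation. They are described here for their place in a ChIP-seq map of the tagged protein C38D4.7. The members were taken by name, and every line of the deposited region lists whose summit lay within 2000 bp of a member's precursor was collected. The family was picked out with these lists known, so the ranks, distances and counts at its members are given as a description, without a test. The 3 lines of the optimal list so collected had ranks of 22, 31 and 539.

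Chromatin was immunoprecipitated with an antibody to GFP from late embryos of strain OP708, of mixed sex, aged 4 hours and synchronised by bleaching of eggs. These worms carry unc-119(tm4063) and the transgene wgIs708, which restores unc-119 with unc-119(+) and adds C38D4.7 fused to TY1, EGFP and 3xFLAG to whatever the worms' own gene makes. There were 2 biological replicates of this 1 group, and whole embryos were used, so binding in different cell types is averaged. The labels give a sonication size range of 200 to 800 without a unit. No list from an untagged strain or from another tagged protein was used here, so the specificity of the peaks for C38D4.7 was not tested.

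A miRNA is cut out of a hairpin precursor and guides an Argonaute protein to messenger RNAs, mainly by pairing of its seed, the bases 2 to 8 of the mature strand. The mir-51 family acts redundantly: embryos without its members die, with a pharynx that fails to stay attached to the mouth, and the cadherin gene cdh-3 has been reported as a target in that setting. By sequence it is related to the miR-99/miR-100 family of other animals. C38D4.7 is annotated as a protein with a C2H2-type domain, a fold found in many DNA-binding proteins.

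The mature strands are shown because the shared seed is what makes these genes 1 family. They are given 5′ to 3′, with the seed in capitals, from the RefSeq annotation and genome of WBcel235.
mir-51: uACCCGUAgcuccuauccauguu
mir-52: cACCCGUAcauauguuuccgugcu
mir-53: cACCCGUAcauuuguuuccgugcu
mir-54: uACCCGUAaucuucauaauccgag
mir-55: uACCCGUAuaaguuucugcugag
mir-56: uACCCGUAauguuuccgcugag
All 6 members carried the seed ACCCGUA, and of 458 annotated mature arms in the genome these were the 6 that had it. In mir-51, mir-52 and mir-53 the arm with the seed was the 5p arm, on the 5′ side of the hairpin, and in mir-54, mir-55 and mir-56 it was the 3p arm. Over the whole strand, seed included, the closest pair was mir-52 and mir-53, identical at 23 of 24 positions (95.8%) and separated by U12A from mir-53 to mir-52, counted from the 5′ end. The next pair, mir-54 and mir-56, matched at 14 of 22 positions (63.6%), and the least alike, mir-54 and mir-55, at 9 of 23 (39.1%). After base 8 the same pairs matched at 15 of 16, 6 of 14 and 1 of 15 positions.

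The members occupy 3 places in the genome. On chromosome IV, mir-51 (F36H1.7, 11026013 to 11026112, minus strand) and mir-53 (F36H1.8, 11027593 to 11027691, minus strand) lie 1480 bp apart. Elsewhere on the same chromosome, mir-52 (Y37A1B.16, 14034008 to 14034107, plus strand) stands by itself. On chromosome X, mir-54 (F09A5.5, 13144996 to 13145094), mir-55 (F09A5.6, 13144827 to 13144924) and mir-56 (F09A5.8, 13144691 to 13144787) follow each other on the minus strand, with gaps of 71 bp between mir-54 and mir-55 and 39 bp between mir-55 and mir-56. Each of these places held 1 peak of the optimal list, so by distance alone 3 peaks were counted for 6 members. The genome sequence around each summit is shown because the motif results turn on it. Each line gives 201 bases of WBcel235 on the strand of the precursor, 5′ to 3′, with the summit at base 101, and capitals mark matches to the motifs described further on.
mir-51, chrIV:11026077-11026277, minus strand: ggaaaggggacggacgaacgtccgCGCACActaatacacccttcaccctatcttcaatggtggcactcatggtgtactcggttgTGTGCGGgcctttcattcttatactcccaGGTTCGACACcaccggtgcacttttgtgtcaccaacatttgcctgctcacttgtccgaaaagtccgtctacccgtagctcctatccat
mir-52, chrIV:14033940-14034140, plus strand: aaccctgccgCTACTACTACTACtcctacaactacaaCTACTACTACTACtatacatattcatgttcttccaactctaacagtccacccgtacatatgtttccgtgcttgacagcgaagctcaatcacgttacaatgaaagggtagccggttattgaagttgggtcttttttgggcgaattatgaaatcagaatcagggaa
mir-54, chrX:13145092-13145292, minus strand: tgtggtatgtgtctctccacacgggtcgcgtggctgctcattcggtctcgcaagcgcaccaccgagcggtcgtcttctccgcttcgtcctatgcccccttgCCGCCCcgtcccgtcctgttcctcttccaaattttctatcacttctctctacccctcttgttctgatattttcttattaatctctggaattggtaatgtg

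The authors deposited 4 lists of regions. The optimal list held 649 lines, of which 629 were nuclear, the pooled list and the replicate 1 list 30000 each, and the replicate 2 list 26661. The optimal lines were exactly the 649 highest-scoring of the pooled list, so a candidate called optimal also has that pooled rank. The pooled list is labelled as peaks and background, so a candidate there need not be a peak. Each line has a summit, −log10 of the authors' q-value and the authors' score. How the score is scaled is not stated, so it orders lines within a list and is not compared between lists. The q-values could not order the peaks at the family, since all 3 had 3.06, the highest value in the optimal list. Read depth is unknown, because the lists hold no read counts. Within 2000 bp of the 6 members lay 3 optimal lines, 10 pooled lines, 10 lines of replicate 1 and 13 lines of replicate 2.

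The strongest of the family's peaks lay just upstream of mir-51. Its region ran from 11025875 to 11026436 on chromosome IV (562 bp), with the summit at 11026177, which is 65 bp upstream of the 5′ end of the mir-51 precursor. It ranked 22 of 649 with a score of 1097, and 9 of 629 among nuclear lines. In replicate 1 the overlapping line ranked 22 with a score of 715.9 and had its summit 92 bp upstream of the precursor. In replicate 2 it ranked 29 with a score of 395.6 and had its summit 64 bp upstream. Both replicates thus placed the peak among their leading lines and on the same side of the precursor. The pooled list held 3 weaker lines within 2000 bp of mir-51, with ranks 9458, 15890 and 20869, the second of them a further summit in the same region.

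Of 13 pooled candidates within 20 kb, counting the peak itself, the best outside its own region ranked 1232 with a score of 144.5 and lay 4465 bp away, against rank 22 and a score of 1097 at mir-51. The protein-coding genes on either side are alh-3, for an aldehyde dehydrogenase family member, and hrg-5, named as a haem-responsive gene. The start of alh-3 lay 3574 bp and that of hrg-5 3251 bp from the summit, and both genes turn their 3′ ends towards it. The 3′ end of alh-3, at 11025870, lay just outside the region of the peak. The summit itself fell inside F36H1.17, an unclassified noncoding RNA gene of 89 bp on the same strand (11026131 to 11026219), 42 bp from its 5′ end. The nearest tRNA gene lay 205388 bp and the nearest snoRNA gene 56970 bp from the summit.

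The mir-53 precursor, upstream of mir-51 on the same strand, had no optimal peak of its own. The nearest optimal summit was the one at mir-51, 1416 bp from mir-53 and on its downstream side. Close to mir-53 the pooled list held a candidate of rank 9458, with a score of 82.02 and its summit 106 bp downstream of the precursor. Replicate 1 had a line of rank 3138 there, with a score of 77.82, at 99 bp downstream. Replicate 2 instead had a line of rank 10302, with a score of 32.89, at 49 bp upstream. The mir-53 candidates thus had ranks from 3138 to 10302 and were not on the same side in both replicates. Their −log10 q was low, at 0.23 in the pooled list, 0.662 in replicate 1 and 0.148 in replicate 2. Their scores were above the median of each list, which was 69.49 in the pooled list, 48.1 in replicate 1 and 30.14 in replicate 2. Since the pooled list holds background as well as peaks, a score above its median does not make a line a peak.

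At mir-52 the peak lay on the hairpin itself. Its region ran from 14033745 to 14034350 on chromosome IV (606 bp), and the summit at 14034040 was 32 bp inside the precursor and within the mature arm that carries the seed (14034024 to 14034047). It ranked 31 of 649 with a score of 929.2, and 18 of 629 among nuclear lines. Replicate 1 ranked it 32, with a score of 629.6 and a summit 33 bp inside the precursor. Replicate 2 ranked it 42, with a score of 309.9 and a summit 7 bp upstream of the precursor, 39 bp from the pooled one. The rank was thus close in both replicates, while the summit lay inside the hairpin in replicate 1 and just outside it in replicate 2.

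A weaker second summit flanked mir-52 on the downstream side. In the pooled list it ranked 1311 with a score of 141.8, 140 bp beyond the 3′ end of the precursor. It ranked 805 in replicate 1 and 299 in replicate 2. Upstream, 1307 bp from mir-52, a further pooled candidate ranked 2325, with a score of 121.3. That one ranked 661 in replicate 2, where its summit lay 1313 bp from mir-52, and the nearest line in replicate 1 ranked 6092. This candidate was the best other one within 20 kb outside the region of the main peak, of 3 pooled candidates there in all.

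Protein-coding genes lie far from mir-52. The start of irld-55, which encodes a protein with receptor L domains, was 13842 bp from the summit and that of Y37A1B.7 was 9740 bp away, and both genes turn their 3′ ends towards mir-52. Of 3 unclassified noncoding genes within 500 bp, Y37A1B.335 (14033942 to 14034090, minus strand) covered the summit, 50 bp from its 5′ end. Y37A1B.330 ended 36 bp and Y37A1B.333 lay 174 bp from the summit. The nearest tRNA gene, Y37A1B.t1, was 20164 bp away, the nearest snoRNA gene 292908 bp.

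The cluster of mir-54, mir-55 and mir-56 had a weaker peak, upstream of all 3 members. Its region ran from 13144957 to 13145426 on chromosome X (470 bp), and its summit at 13145192 lay 98 bp upstream of mir-54, 268 bp upstream of mir-55 and 405 bp upstream of mir-56. It ranked 539 of 649 with a score of 196.4, and 519 of 629 among nuclear lines. The overlapping line ranked 1291 in replicate 1, with a score of 98.76, −log10 q of 1.34 and the summit 109 bp upstream of mir-54. In replicate 2 it ranked 319, with a score of 95.12, −log10 q of 2.8 and the summit 97 bp upstream. The position was nearly the same in both replicates, while the rank was 4.05 times as high a number in replicate 1 as in replicate 2.

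A second candidate lay beyond the other end of the cluster. In the pooled list it ranked 953, with a score of 157.0 and its summit 385 bp past the 3′ end of mir-56. In replicate 1 it ranked 839, with a score of 113.2, ahead of the line upstream of mir-54. In replicate 2 it ranked 1785, with a score of 51.93, behind it. The replicates therefore differed in which side of the cluster held the better line. Each optimal peak was also set beside the best pooled candidate within 20 kb that did not overlap its region. The ranks of the 2 were 539 and 953 here, 22 and 1232 at mir-51, and 31 and 2325 at mir-52. At mir-52 the second summit, whose line overlaps the region of the peak, ranked 1311 and was left out by this rule. A further pooled candidate, 309 bp upstream of mir-54, ranked 5569, and 14 pooled candidates in all lay within 20 kb.

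All 3 clustered members lie in an intron of the protein-coding gene F09A5.3 (X, 13141601 to 13152838, plus strand), on the strand opposite to it. The intron runs between exons that end at 13141727 and start at 13150886, and none of the 9 exons of F09A5.3 overlapped a member or the summit. The start of F09A5.3 lay 3591 bp from the summit. On the other side the nearest start was that of mob-2, a member of the Mob family of kinase activators, at 24883 bp. The noncoding gene F09A5.11 (13145213 to 13145271, minus strand) lay 21 bp from the summit. F09A5.15, annotated as a miRNA on the plus strand opposite mir-55 (13144830 to 13144919), lay 273 bp from it. The lists carry no strand, so a summit cannot be assigned to either strand.

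**Figure D1:**
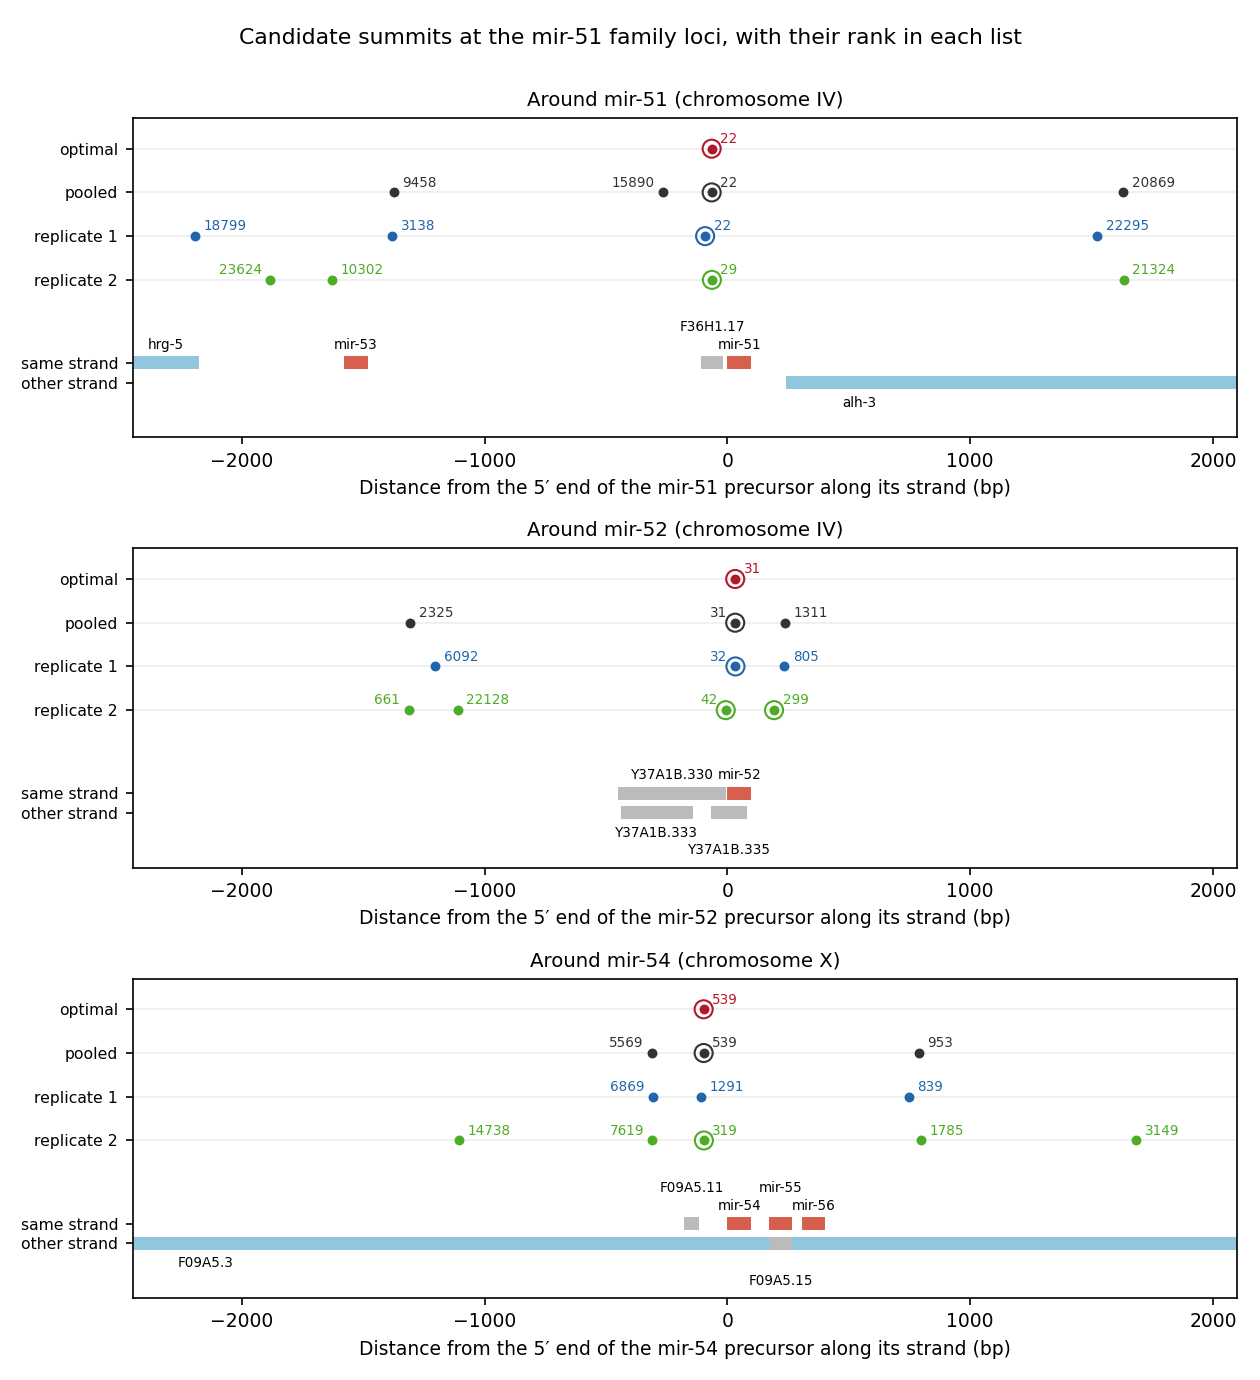
Summits of candidate lines around mir-51 (with mir-53), mir-52 and mir-54 (with mir-55 and mir-56), 1 row per list, with the rank in that list printed beside each point; the horizontal axis is the distance in bp from the 5′ end of the precursor along its strand, rings mark lines ranked 649 or better, and boxes show precursors (red), noncoding genes (grey) and protein-coding genes (blue). Ringed points lie 64 to 92 bp upstream of mir-51 and from 7 bp upstream to 33 bp inside mir-52, where replicate 2 has a further ring of rank 299, whereas at mir-54 the upstream line ranked 1291 in replicate 1 and is ringed in replicate 2.

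Across the replicates, the best lines within 2000 bp overlapped by at least 1 bp for mir-51, mir-52 and mir-53, which makes 3 of 6 members. For mir-53 the shared line was the mir-51 peak. For mir-54, mir-55 and mir-56 the best line of replicate 1 was the downstream candidate and that of replicate 2 the upstream one. The larger of the 2 replicate ranks was 1.32 times the smaller for the peak at mir-51 and 1.31 times for the peak at mir-52, against a median of 1.36 over 647 optimal peaks with a line in both replicates. For the peak at mir-54 this ratio was 4.05, a value reached or passed by 40 of the 647. The optimal list was itself derived by the authors from the alignments of both replicates, so these ratios do not measure the replicates independently.

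**Figure D2:**
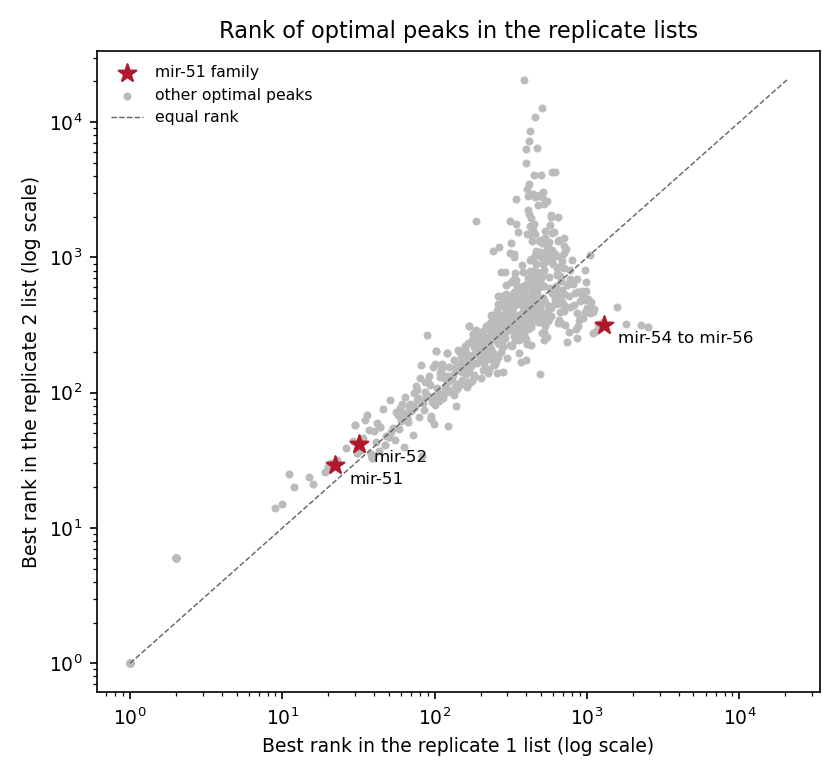
Best rank in the replicate 2 list (vertical) against best rank in the replicate 1 list (horizontal) for optimal peaks, both on log scales, with the family's 3 peaks as stars and equal rank as a dashed line. The stars at mir-51 (22 and 29 in replicates 1 and 2) and mir-52 (32 and 42) lie near the line, and the star for mir-54 to mir-56 (1291 and 319) lies well below it.

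Among the leading lines of the optimal list the family stood beside other kinds of gene. Of the lines down to rank 31, where the mir-52 peak stands, 13 were mitochondrial, 12 had a snoRNA gene and 1 a tRNA gene within 200 bp, and 5 were other nuclear lines, those at mir-51 and mir-52 among them. Of the 346 optimal peaks with no tRNA, snoRNA, snRNA or rRNA gene within 200 bp, the peak at mir-51 ranked 2, that at mir-52 ranked 5 and that at mir-54 ranked 260. These orders come from the scores that brought the family to attention and are no test of it.

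**Figure D3:**
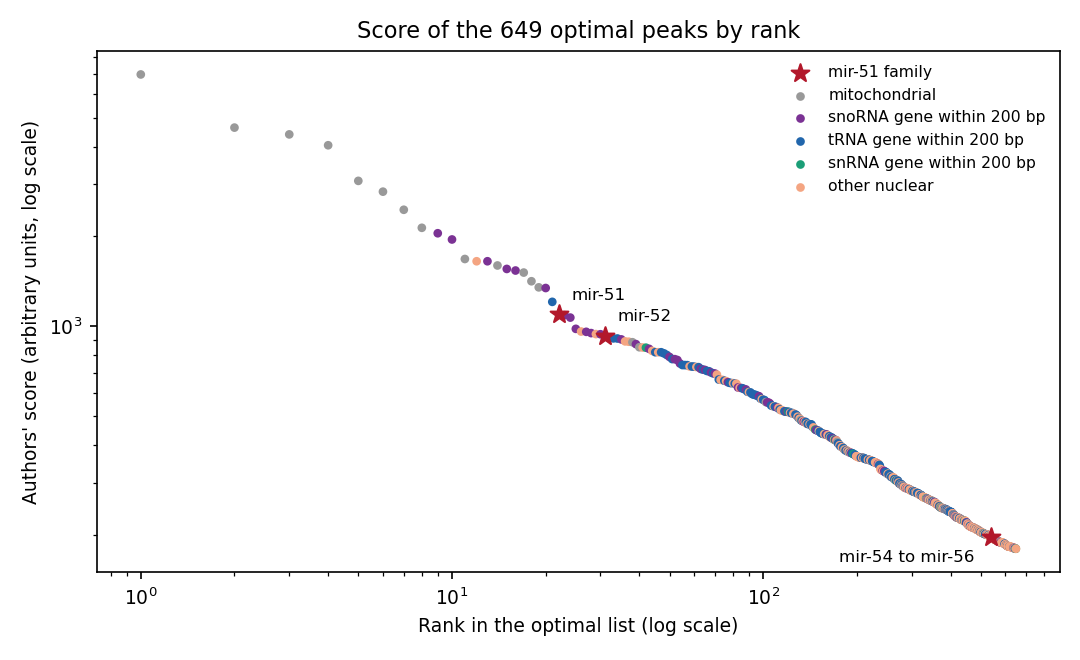
The authors' score (arbitrary units) against rank for the 649 optimal peaks, both axes on log scales, coloured by the gene class found within 200 bp of the summit, with the family's peaks as stars. The stars at mir-51 (score 1097) and mir-52 (929.2) lie among mitochondrial and snoRNA lines, and the star for mir-54 to mir-56 (196.4) lies near the end of the list, whose last score was 180.1.

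Set beside the other miRNA genes, 6 of 6 members had an optimal summit within 2000 bp of the precursor, while 7.87% of the 254 other precursors had one (20 genes, 95% exact binomial interval 4.88 to 11.9). Within 200 bp, 3 of 6 members (mir-51, mir-52 and mir-54) had one, while 1.18% of the others did (3 genes, interval 0.244 to 3.41). The intervals cover counting error over precursors, and neighbouring precursors share peaks. F09A5.15, opposite mir-55, was itself 1 of the 20. When precursors less than 2000 bp apart were merged, the family made 3 loci, all 3 with an optimal summit within 200 bp, and the others made 212 loci, 4 of them with one. A merged locus spans the gaps between its precursors, so a summit in a gap counts, such as that of rank 586 between mir-80 and mir-238. Without replicate 2, when the top 649 lines of replicate 1 stood in for the optimal list, 3 of 6 members (mir-51, mir-52 and mir-53) had a summit within 2000 bp, and mir-54, mir-55 and mir-56 did not. Because the family was chosen by these lists, nothing is concluded from its counts.

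In the longer pooled list presence was common and rank varied. Within 2000 bp, 6 of 6 members had a pooled candidate, as did 68.5% of the 254 others (174 genes), but the best such rank had a median of 285 in the family and 5900.5 in the others. Within 200 bp, 4 of 6 members had a pooled candidate, while 24.8% of the others did (63 genes), with median ranks of 285 and 12030. Members that share a peak count separately in these medians. Within 2000 bp the family's best ranks were 22, 31 and 539, and no member had rank 285. The family was chosen with these ranks known, so nothing is concluded from the medians. The farthest summit inside the limit of 2000 bp was a line of rank 23624 in replicate 2 at 1883 bp from mir-51, and the nearest outside was a line of rank 18799 in replicate 1 at 2195 bp. Among optimal summits the farthest inside was the 1416 bp of mir-53.

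**Figure D4:**
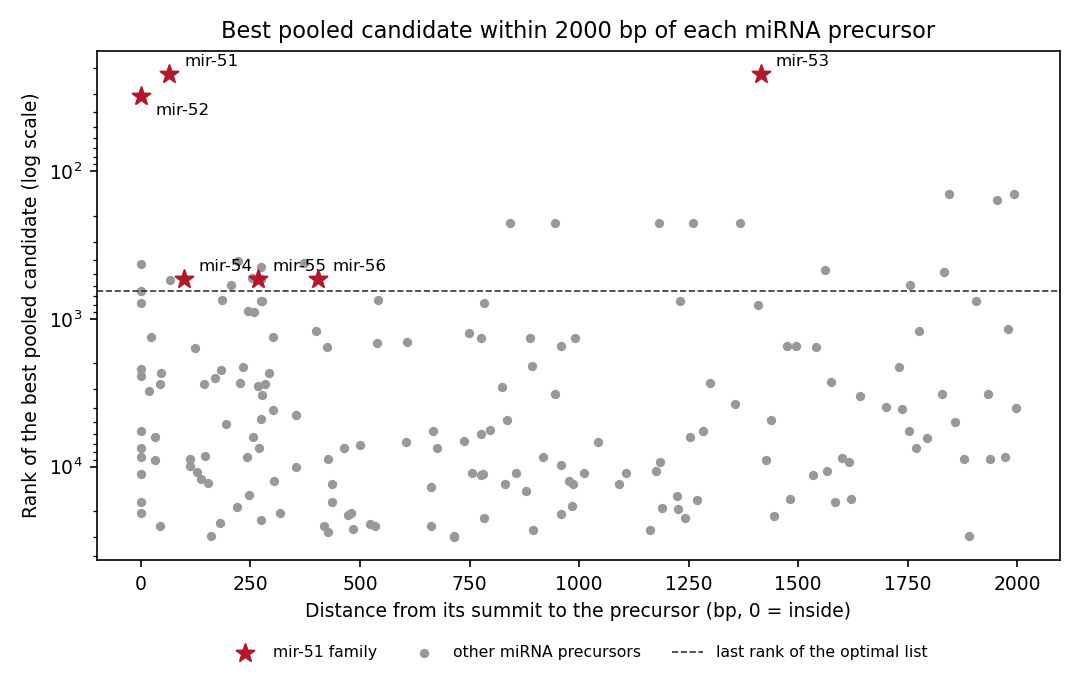
Rank of the best pooled candidate within 2000 bp of each miRNA precursor (vertical, log scale, best at the top) against the distance in bp from its summit to the precursor (horizontal, 0 inside), with the family as stars, other precursors as grey points and rank 649, the end of the optimal list, dashed. The stars of mir-51, mir-52 and mir-53 lie at ranks 22 and 31 above all grey points, of which the best is at rank 143, and those of mir-54, mir-55 and mir-56 lie among grey points at rank 539.

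The 3 other precursors nearest in rank to mir-51, by the difference of log10 rank of the best pooled summit within 200 bp, were mir-4936, mir-5549 and mir-8192. These are also the 3 other precursors with an optimal summit within 200 bp. The summit at mir-4936 (III) ranked 426, with 532 in replicate 1 and 313 in replicate 2, and lay 67 bp inside the precursor. That at mir-5549 (III) ranked 544, with 478 in replicate 1 and 2454 in replicate 2, and lay 67 bp upstream of it. That at mir-8192 (II) ranked 649, the last place of the optimal list, with 862 in replicate 1 and 693 in replicate 2, and lay 112 bp inside. In log10 rank they differed from mir-51 by 1.29, 1.39 and 1.47. The start of rfc-4, a replication factor C subunit gene, lay 101 bp from the summit at mir-5549, and the start of nduf-9, a gene of respiratory complex I, lay 643 bp from that at mir-4936. At mir-8192 the nearest start, that of malt-1, lay 7303 bp from the summit. At the family's peaks the nearest start lay 3251 bp from the summit at mir-51, 3591 bp at mir-54 and 9740 bp at mir-52. The distances at mir-51 and mir-54 lie between those at mir-4936 and mir-8192, and that at mir-52 is larger than both.

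Other miRNA families known from the embryo or from developmental timing are set out by the same distances. Beside their counts stand the shares over the 254 precursors outside the mir-51 family, 1.18% with an optimal and 24.8% with a pooled summit within 200 bp, so counts of 0 optimal summits in families this small do not set them apart. In the mir-35 family, which is also needed for embryonic development, 0 of 8 genes had one and 7 had a pooled candidate, the best at mir-42 with rank 3371. The candidate shared by mir-35, mir-36, mir-37 and mir-38 ranked 14068, and that shared by mir-39 and mir-40 ranked 18659. In the abundant mir-58 family, 0 of 4 genes had an optimal summit within 200 bp, but mir-80 had one of rank 586 at 206 bp and mir-58.1 one of rank 407 at 222 bp. Within 200 bp, mir-58.1 had a pooled candidate of rank 2716, mir-82 one of rank 18867 and mir-81 one of rank 24803. In the let-7 family, which acts in the timing of larval development, 0 of 4 genes had an optimal summit there and 2 had a pooled one. These were of rank 7517 at mir-241 and 16375 at mir-84. In the lin-4 family, also known from larval timing, 0 of 2 genes had an optimal summit within 200 bp. Within that distance lin-4 had a pooled candidate of rank 26087, and mir-237 had an optimal summit of rank 156 at 1954 bp. No difference between these families and the mir-51 family was tested.

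Genes of the miRNA pathway itself were read at their promoters, taken from 1000 bp before a start to 200 bp after it. The list of these genes was chosen with earlier results of these data known, so nothing is concluded from the counts. Of 18 genes for miRNA processing and silencing, 2 had an optimal summit at the promoter, while 1.93% of 19983 protein-coding promoters did. They were vig-1, for a protein found with the RNA-induced silencing complex, at rank 273 and 412 bp upstream of the start, and ain-1, for a GW182-type partner of Argonaute proteins, at rank 467 and 969 bp upstream. The vig-1 peak ranked 292 in replicate 1 and 346 in replicate 2, and the ain-1 peak 425 and 963. In the pooled list 11 of the 18 had a candidate, while 33.6% of all promoters did. The best of the rest was alg-5, an Argonaute gene, at rank 816 and 835 bp upstream, with 1175 in replicate 1 and 658 in replicate 2. The genes drsh-1, pash-1 and dcr-1, whose products process miRNA precursors, and alg-2, tsn-1, gld-2 and xpo-1 had no pooled candidate at the promoter. Of these, dcr-1 had a line there in both replicate lists, of rank 17012 in replicate 1 and 17429 in replicate 2. The reported target cdh-3 also had no pooled candidate at its promoter.

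The sequences at the 3 summits had little in common with each other. The longest exact run shared between windows of 301 bp was 9 bases for mir-51 and mir-52 and 8 bases for each of the other pairs, on either strand. The GC content within 50 bp of the summit was 50.5% at mir-51, 43.6% at mir-52 and 58.4% at mir-54, against a median of 50.5% over the 629 nuclear optimal peaks and 40.6% over 29350 lower-ranked nuclear candidates. Each 30-base word of the 3 windows of 301 bp, 272 words a window, occurred once in the genome. The 7 motifs were searched on both strands. They were CGAACC together with GTTCGA, which overlap each other on opposite strands, the longer GTTCGANNC, which begins with GTTCGA, then CGCACA beside CCGCAC, which also overlap, and CCGCCC on its own. These letters came from earlier results of these data. CTACTACTAC was added after the mir-52 sequence was seen. Matches to overlapping motifs are not separate.

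The window at mir-51 held 5 of the 7 motifs within 50 bp of the summit. GTTCGANNC, the core of the B box of the internal promoter of tRNA genes, started 14 bp after the summit and 51 bp upstream of the precursor, on the strand of mir-51. It lay at bases 57 to 65 of the 89 bases of F36H1.17, the noncoding gene that holds the summit. CCGCAC and CGCACA lay on the opposite strand, 15 and 16 bp before the summit, and are printed as the run TGTGCGG. Of the optimal peaks with a tRNA gene within 200 bp, 81 of 213 held GTTCGANNC within 50 bp of the summit. Of the 346 peaks with no tRNA, snoRNA, snRNA or rRNA gene within 200 bp, 6 did (1.73%), and of the lower-ranked candidates 1.06%. The class of 346 peaks still includes those at miRNA and unclassified noncoding genes, such as the mir-51 peak. The mir-51 peak was the highest-ranked of those 6, the next having rank 112. CCGCAC showed a different split, in 2.82% of peaks near tRNA genes, 18.2% of the 346 peaks and 2.40% of lower-ranked candidates. Both motifs occurred together within 50 bp of 2 of the 629 nuclear optimal summits, those of rank 22, at mir-51, and rank 33.

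At mir-52 none of the 7 motifs was found within 50 bp of the summit. Further out, CTACTACTAC matched 4 times, starting 90, 87, 63 and 60 bp before the summit, in 2 runs of a CTA repeat just upstream of the hairpin. It was found within 100 bp of 1 of 629 nuclear optimal summits (0.159%), the one at mir-52, and of 41 of 29350 lower-ranked summits (0.140%). The motif was cut from this window, so its match at mir-52 was fixed in advance. At mir-54 the window held CCGCCC, starting 1 bp after the summit. That motif was found in 11.9% of nuclear optimal windows and 3.66% of lower-ranked ones. Of optimal windows with no tRNA, snoRNA, snRNA or rRNA gene within 200 bp, 15.6% held it. A match of letters is a description of the sequence and does not show that C38D4.7 contacts it.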

How the data were processed

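The material was chromatin from 2 biological replicates of 1 group of tagged late embryos, precipitated with an antibody to GFP. Regions were called by the authors on assembly ce11 for each replicate and for both pooled, with 1 shared control alignment, per the deposited read-me texts, and the optimal list was derived by the irreproducible discovery rate. For caller, aligner and thresholds no statement was found in the sources used here. A line in the deposited lists holds a score, −log10 of the q-value and a summit offset, all by the authors. Lines were ranked by score within a list.

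Genes came from the RefSeq annotation of WBcel235, and the Ensembl annotation gave the same coordinates for the 6 members. Precursors were taken with summits within 2000 or 200 bp, counting every line. The named items were the 6 members, the nearest coding starts, noncoding genes within 500 bp of a summit, the 3 precursors most alike in rank, and the leading genes of 6 lists. Members, lists and motif letters were chosen with earlier results of these data known. The motif CTACTACTAC was added after seeing the sequences, and mir-58 was matched as mir-58.1. The assignment of summits to precursors was checked on planted positions. Other distances, regions in place of summits, the higher-scoring part of the optimal list, other ranks and windows, and each replicate alone were tried as alternatives. With 1 group, no comparison between groups was made. Depth is unknown, and the 95% exact binomial intervals cover counting error only. Python 3.11.15, pandas 2.3.3, numpy 2.4.6, SciPy 1.17.1 and matplotlib 3.10.9 were used.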

Additional observations from a re-analysis of the deposited data

How the results depend on the processing

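Of 86 recomputed values, 54 stayed within the tolerance for their kind, 27 went past it and 5 turned in sign. These values are not separate checks, since members that share a peak repeat its ranks. The turns in sign came from the replicate 2 line at mir-52, entered under 2 settings, and the replicate 1 line beyond mir-56, entered for each member of the cluster. The tolerance was 1 SD of both replicates for ranks and positions, so it is wide where the replicates differ, and a ratio of 1.5 for counts and shares. Alternatives without mitochondrial regions, with merged loci, and with the replicate line that overlaps the pooled one were chosen after seeing the data. The 6 members with an optimal summit within 2000 bp became 3 when only the higher-scoring part of the optimal list, cut at its middle rank, was used, 3 loci after merging, and 3 to 6 when 1 replicate was left out and the top 649 lines of the other stood in. The 3 members without replicate 2 were mir-51, mir-52 and mir-53. The 3 members within 200 bp became 5 at 500 bp and 5 when regions replaced summits, and 2 to 3 with 1 replicate left out. The 1.18% of other precursors with an optimal summit within 200 bp became 3.54% at 500 bp, 7.87% at 2000 bp, 1.89% of merged loci and 0% with the higher-scoring part of the list, and 0.787 to 1.57% with 1 replicate left out. The rank of 22 for mir-51 and mir-53 became 11 over distinct regions, 9 without mitochondrial regions, and 22 to 29 with 1 replicate left out. For mir-52 the rank of 31 became 20, 18 and 32 to 42 under the same changes. For the cluster the rank of 539 ran from 319 to 839 with 1 replicate left out, a wide range that lies within the tolerance because the replicate ranks there differ.

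Positions are counted from the 5′ end of the precursor, negative upstream. At mir-51 the summit at -65 bp became -43 bp with the centre of the region, -92 bp with the overlapping line of replicate 1, and -92 to -64 bp with 1 replicate left out. At mir-53 the value of 1514 bp became 1536 bp, 1487 bp and 1487 to 1515 bp. At mir-52 the 32 bp turned to -7 bp with the overlapping line of replicate 2, and ran from -7 to 33 bp with 1 replicate left out. Leaving out replicate 2 turned the sign at the cluster, because the best line of replicate 1 was then the candidate beyond mir-56: the range was -97 to 748 bp at mir-54, -267 to 578 bp at mir-55 and -404 to 441 bp at mir-56. With the overlapping line of replicate 1 the summit stayed upstream, at -109 bp from mir-54. The motif count at mir-52 was 0 within 50 bp, 1 within 100 bp and 1 within 150 bp, and at mir-54 it was 1, 1 and 2. The 1 at mir-52 was CTACTACTAC, which was cut from the sequence there. For the other moves the cause was not tested. No paired analysis was possible because the samples form 1 group and the result comes from no test. The unknown read depth limits what a missing or low-ranked line can show.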
